A study of Mus musculus with 8 samples.

Results

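The chromatin loops described here were listed in both p30 groups of an H3K27ac HiChIP experiment and in neither p42 group. They were chosen by list membership alone: the same first and the same second 5 kb bin had to be present in the p30 UT and the p30 LPS list and absent from those of p42 UT and p42 LPS. This held for 3381 of the 214313 different loops of the 4 lists (1.58%), or 7.19% of the 47004 loops found in both p30 lists. They are called p30-only loops in what follows, a name for a pattern of listing. A loop that is missing from a list had too few contacts to pass the caller's q-value of 0.01, and its contacts there are unknown.

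The cells were HPC-7, a mouse haematopoietic progenitor line grown in stem cell factor, transduced by retrovirus with CEBPA p30 or with CEBPA p42. HPC-7 cells hold very little CEBPA of their own. The p30 UT and p42 UT groups were untreated, and the p30 LPS and p42 LPS groups received lipopolysaccharide (LPS), which bacteria shed and TLR4 recognises, at 100 ng/mL for 2 h. The transgenes were driven by a viral vector, which limits them as models of a CEBPA allele at its own locus. The study's methods use the names p42 HPC-7 and p30 HPC-7 for lines with tamoxifen-controlled fusions. A legend of its HiChIP uses the name p42 HPC-7. The sample labels do not state whether the HiChIP lines carried these fusions or the constitutive forms. Each group had 2 libraries, 8 in all, and 1 list of loops was deposited per group. A lower count in such bulk samples cannot tell fewer cells with a contact from fewer contacts per cell. Replicates could not be compared, no test between groups was possible, and every difference below compares pooled libraries.

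CEBPA is a basic leucine zipper transcription factor that directs the myeloid lineage. The full-length protein is p42. The shorter p30 starts from an internal start codon, lacks the N-terminal transactivation elements, keeps the DNA-binding domain, and is produced in patients with acute myeloid leukaemia whose CEBPA mutations lie near the N-terminus. H3K27ac marks active promoters and enhancers. In HiChIP, DNA ends that neighbour each other in space are ligated and the products are pulled down with an antibody, so that the number of contacts of a bin pair depends both on proximity and on the H3K27ac signal at its ends.

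For p30, 80489 loops were listed in UT and 94609 in LPS, and for p42 158233 in UT and 78591 in LPS. The caller's models used 14503330 to 18999991 contacts per list, and peak bins were covered by a mean of 1939 to 2911 reads. Absence from the long p42 UT list was therefore the stricter part of the rule. Progenitor genes served as a check of the cell type, and all 10 markers, among them Kit, Cd34, Lmo2 and Runx1, had promoter loops in all 4 lists, with Gata2 at the fewest (1 to 5). Among markers of other cell types, 7 had no promoter loop in any list, whereas Cd79a had 2 to 4 in each list and Apoa1 had 1 in p42 UT. Intervals of shares below are 95% Wilson intervals, which cover counting error only, and loops that share a bin are not independent.

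Stretches of sequence from bins and promoters on which the results turn are shown first, in the GRCm39 assembly and 5′ to 3′. Capitals mark matches to 6 motifs searched on both strands: a CEBP palindrome (TTGCGCAA), a CEBP-ATF composite (TGATGCAA), the AP-1 element (TGANTCA), the motif of GATA factors (AGATAAG), an ETS site of the PU.1 type (GAGGAAGT) and a RUNX site (TGTGGTTT). Overlapping matches were counted separately. Among bins of p30-only loops with higher H3K27ac coverage in p30, ranked by the smaller of the ratios in UT and LPS, the first lies downstream of Bcl11a, in an intron of the non-coding gene Gm33440, at chr11:24190001-24195000. It held 3 AP-1 matches and 1 RUNX match, here on the plus strand with 26 flanking bases.
chr11:24190991-24191049: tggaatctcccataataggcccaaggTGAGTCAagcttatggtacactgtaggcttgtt
chr11:24191111-24191169: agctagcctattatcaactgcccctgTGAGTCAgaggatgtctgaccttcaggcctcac
chr11:24192915-24192973: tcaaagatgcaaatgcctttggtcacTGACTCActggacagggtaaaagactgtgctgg
chr11:24193059-24193118: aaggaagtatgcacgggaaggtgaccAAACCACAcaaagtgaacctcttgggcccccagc
The next bin in that order, at Egfl7, held 4 GATA matches in 1 stretch, and a bin in an intron of Galnt2 held a pair of AP-1 matches close together. The bin with the most p30-only loops, at Ptprs, held an ETS match beside a RUNX match.
chr2:26465520-26465602: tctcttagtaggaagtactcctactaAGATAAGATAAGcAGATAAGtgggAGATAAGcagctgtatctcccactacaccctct
chr8:124997843-124997928: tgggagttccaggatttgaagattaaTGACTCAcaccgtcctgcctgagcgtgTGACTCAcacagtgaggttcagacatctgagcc
chr17:56750608-56750680: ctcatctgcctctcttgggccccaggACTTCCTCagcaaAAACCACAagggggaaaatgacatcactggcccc
Beside these, the 150 bases upstream of the start sites of Etv5 and Hoxa5, on the minus strand, are given because these promoters anchor some of the p30-only loops farthest above expectation. Neither window held a match.
Etv5, chr16:22258484-22258633: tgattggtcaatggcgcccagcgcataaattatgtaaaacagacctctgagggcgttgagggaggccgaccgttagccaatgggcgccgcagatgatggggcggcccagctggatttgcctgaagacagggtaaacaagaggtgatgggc
Hoxa5, chr6:52181568-52181717: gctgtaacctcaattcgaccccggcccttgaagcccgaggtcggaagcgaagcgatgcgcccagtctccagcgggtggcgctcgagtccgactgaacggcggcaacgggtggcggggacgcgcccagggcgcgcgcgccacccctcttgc

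Loops in both p30 lists alone were fewer than loops in both p42 lists alone, of which there were 11842. Both UT lists alone shared 10690 loops and both LPS lists alone 2861. The crossed pairs, which no factor of the design links, shared 14924 loops where p30 LPS was paired with p42 UT and 1687 where p30 UT was paired with p42 LPS. The 3381 p30-only loops thus lay within the range of the other pairs, and the 3 pairs that included the long p42 UT list had the most. When every list was reduced to the same length, the number of p30-only loops was 5723, of which 2529 were among the 3381.

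**Figure D1:**
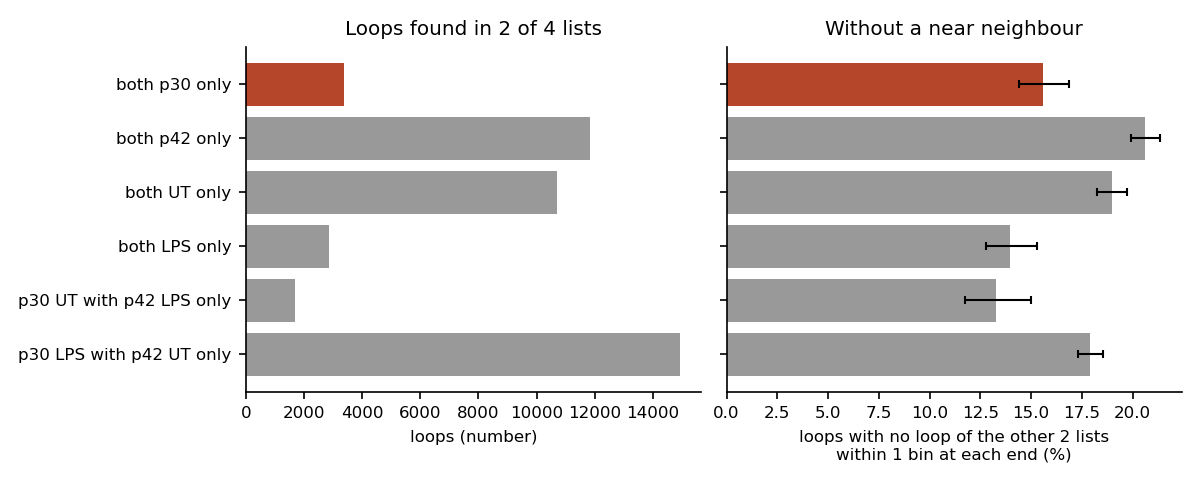
The left panel plots the number of loops found in exactly 2 of the 4 lists, for each pair of lists, and the right panel the percentage of those loops with no loop of the other 2 lists within 1 bin at each end, with 95% Wilson intervals. The p30-only loops (red) number 3381 against 11842 for both p42 lists, and 15.6% against 20.6% of them have no near neighbour.

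Most p30-only loops had a close p42 counterpart. A p42 loop lay within 1 bin at each end in both p42 lists for 1950 loops (57.7%), in p42 UT alone for 804 (23.8%) and in p42 LPS alone for 100 (2.96%). No p42 loop lay so near for 527 loops (15.6%, 95% interval 14.4 to 16.8). The same share was 20.6% (19.9 to 21.4) for loops in both p42 lists alone, measured against the p30 lists, and 13.3% to 19.0% for the other pairs of lists, so that the share in p30-only loops was not outside that of pairs which no isoform links. The p42 neighbours were listed with more contacts than the p30-only loops themselves. In UT the median was 24 contacts for the strongest p42 neighbour (quartiles 16 and 43) and 16 for the p30-only loop in p30 (12 and 26). In LPS these medians were 19 (13 and 35) and 15 (11 and 23). The strongest p30 pair within 1 bin, the p30-only loop itself included, had a median of 22 contacts in both treatments. At least 1 of the neighbouring p42 pairs was also in the p30 list of that treatment for 71.4% of loops in UT and 76.9% in LPS.

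The bins showed this more strongly. The 3381 loops used 6053 bins, of which 5579 (92.2%) had an H3K27ac peak. Of all these bins, 90.1% were in some p42 UT loop and 76.7% in some p42 LPS loop, and 490 (8.10%) were in no p42 loop. Both bins lacked any p42 loop for 1.66% of the p30-only loops. The loops were also scattered: 90.1% of the bins were in a single p30-only loop, and merging adjacent bin pairs left 3203 clusters, the largest with 4 loops. They lay on all autosomes and on chromosome X (15 loops), at 5.25% (chromosome 17) to 9.70% (chromosome 13) of the loops in both p30 lists of a chromosome, and chromosome Y had 0 of 3.

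The p30-only loops had fewer contacts and longer distances at the median than loops found in all 4 lists. Median contacts were 16 in p30 UT (quartiles 12 and 27) and 15 in p30 LPS (11 and 24), compared with 29 and 28 for the 31032 loops of all 4 lists. Contact counts decide what is listed, so these values describe the rule. Contacts over the caller's expected count, which takes distance and coverage into account, had a median of 4.16 in p30 UT (2.74 and 5.66) and 4.50 in p30 LPS (3.04 and 5.84). Loops in all 4 lists had 4.34 and 4.89. The median distance between the bins was 45 kb (20 and 105), against 35 kb in all 4 lists and 40 kb in loops of both p42 lists alone. Over the other pairs of lists the medians ran from 30 kb to 60 kb, with 50 kb in loops of both UT lists alone and 60 kb where p30 UT was paired with p42 LPS. Loops over 100 kb made up 25.6% of the p30-only loops, 15.05% of loops in all 4 lists, 18.1% of loops in both p42 lists alone and 29.8% of loops of p30 UT paired with p42 LPS. The longest spanned 865 kb. With at least 15 contacts in each p30 list, a cut not applied to the other classes, the median distance of p30-only loops was 20 kb. A peak was present in both bins for 85.4% of the p30-only loops. The share was 92.8% in all 4 lists and 92.4% in loops of both p42 lists alone. It was 83.3% where p30 UT was paired with p42 LPS and 93.3% where p30 LPS was paired with p42 UT. Loops of both UT lists alone had 87.9% and those of both LPS lists alone 90.2%.

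A promoter, meaning the start site of the canonical transcript of a protein-coding gene within a bin, was present in 1021 p30-only loops (30.2%, 28.7 to 31.8). The share was 36.9% over all loops in both p30 lists and 38.3% in loops of all 4 lists. It was 29.0% (28.2 to 29.8) in loops of both p42 lists alone, which overlaps the interval of the p30-only loops, and 31.2% in the union of the lists. Both bins held a promoter in 157 p30-only loops (4.64%). Among the 527 loops without a near p42 loop, 34.5% (30.6 to 38.7) had a promoter and 43 (8.16%) had promoters in both bins. These loops had a median distance of 45 kb, with quartiles of 10 and 135 kb that were wider than those of the p30-only loops as a whole.

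How far the p30-only loops lay from being listed in p42 was estimated from the caller's own model. For each loop, the p42 listing limit is the largest number of contacts with which the pair would still have been left off the p42 list, given its distance and the p42 coverage of its bins. The limit could be computed where both bins had p42 coverage, for 2837 loops in UT (83.9%) and 2146 in LPS (63.5%). The median limit was 12 contacts in UT and 11 in LPS. Per modelled contact, the p30 count exceeded this limit by a median of 1.32-fold in UT (quartiles 1.18 and 1.48) and 1.31-fold in LPS (1.201 and 1.49), so that a p42 count lower by these factors would have been enough for absence from the list. These folds are the smallest difference in contacts per modelled contact that the listing implies, without counting error, and the folds above a limit given below are on this scale unless another is named. They reached 1.5-fold for 678 loops in UT (23.9%) and 510 in LPS (23.8%), and 2-fold for 97 and 66. Scaled by the expected counts in place of modelled contacts, the shares at 1.5-fold were 15.2% and 13.2%. In 86 loops in UT and 36 in LPS the p30 count per modelled contact was below the p42 limit. For loops in both p42 lists alone, the same measure against the p30 limits reached 1.5-fold in 32.6% in UT and 13.9% in LPS.

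**Figure D2:**
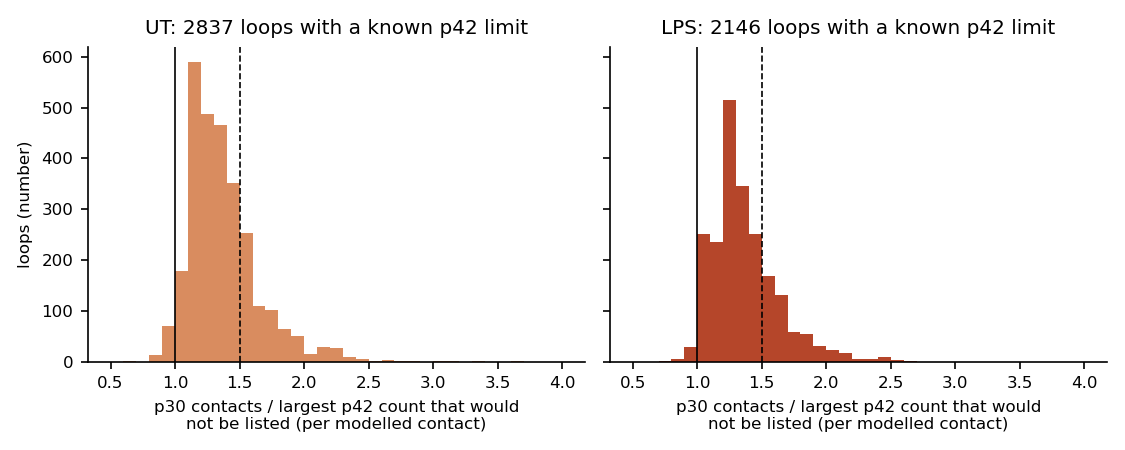
The histograms plot the number of p30-only loops (y axis) by the ratio of their p30 contacts to the largest p42 count that would not have been listed, per modelled contact (x axis), for UT (left) and LPS (right); a solid line marks a ratio of 1 and a dashed line 1.5. Most loops lie between the lines, with medians of 1.32 and 1.31.

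Of the 2074 loops with a limit in both p42 lists, 189 (9.11%) were at least 1.5-fold above both limits and 8 at least 2-fold above both. These 8 were singled out after their values were seen, and 2 of them, at Gse1 and at Ifitm10, stayed at least 2-fold above both limits when scaled by the expected counts. The loop between the start sites of Vps36, a subunit of the ESCRT-II sorting complex, and Thsd1 (35 kb) had 27 contacts in p30 UT and 25 in p30 LPS, at least 2.20-fold and 2.48-fold above the p42 limits of 13 and 11. A loop of 155 kb from an intron of Gse1 to its start site had 20 and 19 contacts against limits of 9 and 9, or at least 2.35-fold and 2.30-fold. A loop of 345 kb joined an intron of Ifitm10 to the bin of the Ins2 start site with 15 contacts in each p30 list, against limits of 7 and 7. The promoter of Sort1, a sorting receptor, was joined to Celsr2 with 19 and 17 contacts over limits of 10 and 9. The other four lay at Nt5m (17 and 14 contacts), Spop (19 and 17), Eeig1 (19 and 17) and near Gatd3a (22 and 19). All 8 had a p42 UT loop within 1 bin at each end, and 5 of them also had such a p42 LPS loop.

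The rule has a threshold in the q-value. The larger of both p30 q-values of a p30-only loop had a median of 0.0029. It was above 0.005 in 1120 loops (33.1%) and under 1e-04 in 300 (8.87%). Of the 43623 loops in both p30 lists that a p42 list kept out, the smaller p42 q-value was above 0.005 in 835 (1.91%) and under 1e-04 in 37378 (85.7%). Just inside was a loop between the start sites of Rab44 and Cpne5 (chr17:29330001 and 29455001), with 11 and 16 contacts and a deciding q-value of 0.00998. Just outside was a loop from the start site of Msantd1 to Rgs12 (chr5:35070001 and 35185001), with 11 and 17 contacts in p30 and 9 in p42 LPS at a q-value of 0.00999.

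H3K27ac coverage of the bins is part of the same contrast, since it enters both the contacts and the caller's expectation, and is given as a description. Coverage was scaled by the mean coverage of peak bins of each list. It is known for p42 only where a bin is in some p42 loop, which left 5144 peak bins in UT and 4419 in LPS. Coverage was at least 1.5-fold higher in p30 than in p42 in 347 of them in UT (6.75%) and 332 in LPS (7.51%), compared with 3.43% and 2.88% over all peak bins with a value. It was at least 1.5-fold higher in p42 in 74 (1.44%) and 57 (1.29%), compared with 4.78% and 3.87%. Scaling by modelled contacts moves all bins of a treatment by 1 factor. With it, coverage was higher in p30 in 96 bins in UT (1.87%, against 0.740% of all) and 1312 in LPS (29.7% against 16.8%), and higher in p42 in 211 (4.10% against 10.7%) and 7 (0.158% against 0.911%). The median p42 to p30 ratio was 0.908 in UT, compared with 0.977 over all peak bins, and 1.04 compared with 1.12 per modelled contact, where both medians crossed 1. In LPS it was 0.935 compared with 1.00, and 0.741 compared with 0.793 per modelled contact. Under both treatments, coverage was at least 1.5-fold higher in p30 in 68 of 4327 bins of p30-only loops (1.57%), against 0.508% of all 31321 peak bins with a value in every list. These 68 bins were part of 109 p30-only loops. Per modelled contact the count was 52 (1.202%, against 0.326%), of which 34 were among the 68.

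**Figure D3:**
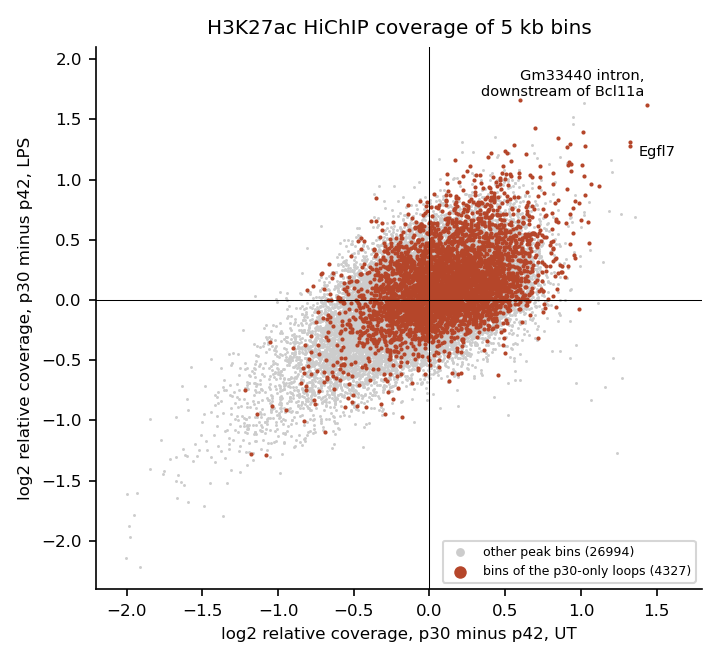
Each point is a 5 kb peak bin with a value in all 4 lists, with the log2 difference in relative coverage between p30 and p42 in UT (x axis) and LPS (y axis). Of the 4327 bins of p30-only loops (red), the bin downstream of Bcl11a lies at 1.44 and 1.62 and that at Egfl7 at 1.32 and 1.31; 26994 other peak bins are grey.

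Among bins of p30-only loops, ranked by the smaller of the p30 to p42 ratios in UT and LPS, the first lay 165 kb from the start site of Bcl11a, a zinc-finger repressor needed for lymphoid development and the silencing of fetal globin (chr11:24027941-24124123, plus strand, start site 24027941). The locus was examined after this ratio was seen. The bin, chr11:24190001-24195000, had 6031 reads in UT and 11442 in LPS for p30, and 2693 and 3225 for p42. Both p30 values were above both p42 values. Relative to the mean of peak bins this was 2.51 and 5.11 in p30 and 0.925 and 1.66 in p42, a ratio of 2.71 in UT and 3.07 in LPS. In LPS alone a bin near Mylip (chr13:45595001-45600000) had a larger ratio, 3.17, with 1.52 in UT. Per modelled contact the ratios of the bin near Bcl11a were 2.37 and 3.87. For p30 this bin was in 7 loops in UT and 16 in LPS, and for p42 in 2 and 3.

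All 8 loops in both p30 lists in the 500 kb window chr11:24000001-24500000 were p30-only, and 5 of them had no p42 loop within 1 bin at each end. The longest joined the downstream bin to the start site of Bcl11a with 10 contacts in p30 UT and 14 in p30 LPS, at 6.49 and 8.75 times the expected count and a p42 UT limit of 7. The start-site bin also holds the start of A830031A19Rik. From the downstream bin, p30-only loops reached 10 kb and 15 kb further downstream, with 55 and 101 contacts and with 37 and 43 contacts. Both had more contacts in LPS. The other five lay within Gm33440 and its neighbours, with 21 to 54 contacts in p30 UT and 31 to 53 in p30 LPS. A loop of p42 LPS with 9 contacts ended 1 bin away from the promoter loop at each end, so the promoter contact had a near p42 counterpart. The whole window held 18 and 26 p30 loops, and 6 and 8 p42 loops, in UT and LPS.

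**Figure D4:**
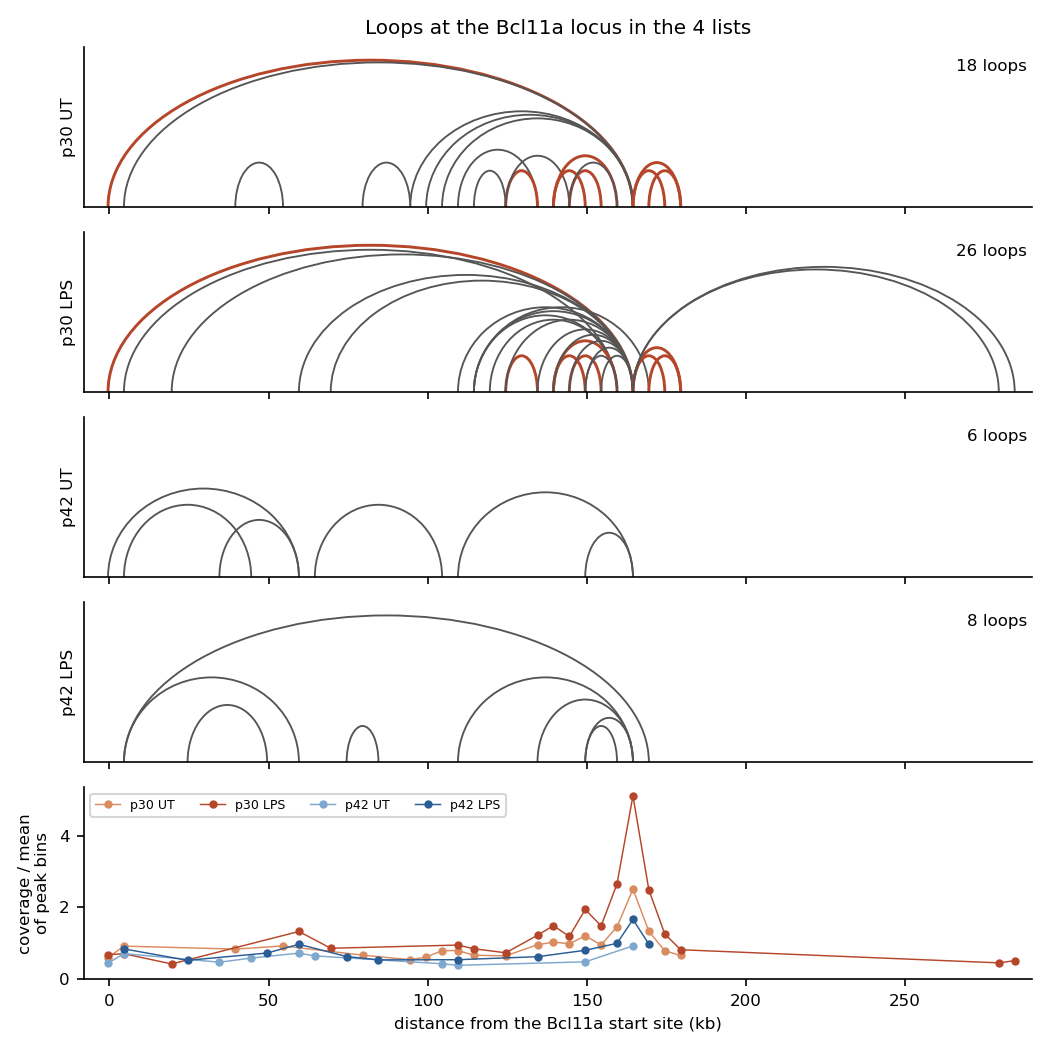
Arcs in the upper 4 panels are all listed loops of the region, one panel per list, by distance from the Bcl11a start site (x axis, kb), with p30-only loops in red; the lowest panel plots coverage relative to the mean of peak bins (y axis) for every bin that is in a loop of that list. Coverage peaks 165 kb from the start site at 5.11 in p30 LPS, 2.51 in p30 UT, 1.66 in p42 LPS and 0.925 in p42 UT.

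The second bin in this order lay at Egfl7, which codes for a secreted factor of endothelial and haematopoietic cells. This locus, Ptprs and Galnt2 were likewise chosen after the values were seen. The bin chr2:26465001-26470000, with an exon of an Egfl7 transcript, had 12738 and 8175 reads in p30 and 6158 and 2845 in p42 for UT and LPS, a relative ratio of 2.50 in UT and 2.49 in LPS. The p30 values again lay above both p42 values. Of 67 loops in both p30 lists in a window of 300 kb around the bin, 14 were p30-only, and 2 of these had no near p42 loop. They joined the region upstream of Egfl7 to Sec16a, to exons of the receptor gene Notch1 and to the start site of the signalling regulator Gpsm1 (9 contacts in p30 UT and 14 in p30 LPS), and 1 ran from the start site of Notch1 to the non-coding Gm36171 (19 and 11 contacts, at 7.41 and 4.77 times the expected count).

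At Ptprs, a receptor tyrosine phosphatase, the bin chr17:56750001-56755000 was in 7 p30-only loops, more than any other bin, and in 20 and 19 p30 loops and 12 and 3 p42 loops in UT and LPS. Its coverage was 11678 and 12524 in p30 and 7535 and 4509 in p42, a ratio of 1.88 in UT and 2.40 in LPS. Of the 7 loops, 5 ran to the neighbouring Kdm4b, a histone demethylase gene, with 16 to 24 contacts in p30 UT and 12 to 24 in p30 LPS. A window of 125 kb here held 13 p30-only loops of 38 in both p30 lists. At Galnt2, a glycosyltransferase gene, an intronic bin (chr8:124995001-125000000) had 6425 and 5616 reads in p30 and 4072 and 2226 in p42, a ratio of 1.91 and 2.18. Of its 4 p30-only loops, 1 joined it to the start site of Galnt2 with 21 contacts in p30 UT and 15 in p30 LPS, at 5.47 and 5.11 times the expected count. Another spanned to a region upstream of the gene with 15 and 14 contacts, at 9.20 and 9.45 times the expected count, and had no near p42 loop. Other bins with at least 1.5-fold higher coverage in p30 under both treatments included the start-site bin of the GTPase gene Gimap5, introns of Dusp29 and Cdkal1, and exons of Grap2, an adaptor of leukocyte signalling. The start-site bins of Gimap4 and H2-Ob were also among the 68, but in UT their ratios were 1.37 and 1.37 per modelled contact.

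By 500 kb windows, p30-only loops were found in 1154 of the 2046 windows with a loop in both p30 lists, and 44 windows had at least 10. The fullest held 25 of 138 at Smad3 and Smad6, transducers and inhibitors of TGF-beta signalling (chr9:63500001-64000000), yet only 1 of them lacked a near p42 loop, and the window had 228 loops in p30 and 332 in p42 in UT, and 289 and 197 in LPS. By contrast, 5 of the 8 at Bcl11a lacked one.

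At the gene level, 1169 protein-coding genes had a p30-only loop at their start-site bin, which is 18.6% of the 6274 genes with a loop in both p30 lists there. A gene had 1 such loop in 1027 cases and at most 4. In 250 genes at least 1 had no near p42 loop. In UT, where the p42 list was the longer one, 815 of the 1169 had more promoter loops in p42 than in p30 and 206 had fewer. In LPS, where the p42 list was the shorter one, 69 had more and 1010 had fewer. No p42 promoter loop was listed under either treatment for 45 genes. Of all ends of loops in both p30 lists at promoters, 5.85% belonged to p30-only loops.

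Genes of stem and progenitor cells had p30-only loops at 4 of 21 genes with a p30 promoter loop (19.0%, near the 18.6% of all genes), namely Hoxa5, Zfp36l2, Bcl11a and Lyl1. Hoxa5, a homeobox factor (chr6:52178734-52181567, minus strand), had 4 promoter loops in p30 under either treatment, and 2 and 1 in p42 in UT and LPS. Its start site was joined to an exon of Skap2, an adaptor of integrin signalling, over 330 kb with 14 contacts in p30 UT and 11 in p30 LPS. This was 11.4 and 9.15 times the expected count and at least 2.11-fold and 1.72-fold above the p42 limits of 7 and 7. A second p30-only loop of 195 kb reached the Skap2 start site with 12 and 13 contacts, at least 1.81-fold and 1.77-fold above limits of 7 and 8. Both had a p42 UT neighbour, of 11 and 10 contacts, and the first also had a p42 LPS neighbour of 8 contacts. Lyl1, a basic helix-loop-helix factor, had 1 of 12 and Zfp36l2, an RNA-binding regulator of mRNA decay, 2 of 23 loops in this class. Gata2 and Msi2 had no loop in both p30 lists at their start sites, and Nt5e had none in any list. In UT and LPS, Gata2 had 1 and 3 promoter loops in p30 and 5 and 3 in p42, and Msi2 had 2 and 1 in p30 and 9 and 2 in p42.

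AP-1 family genes, whose products bind DNA as dimers of basic leucine zipper proteins, had p30-only loops at 4 of 20 genes (20%, against 18.6% of all genes). These were Mafk, Jund, Atf5 and Fosb. Jund (chr8:71151599-71153265, plus strand) had 2, both without a near p42 loop. It was joined to the start site of Gm3336 at 20 kb with 28 contacts in p30 UT and 23 in p30 LPS, and to that of Arrdc2 at 140 kb with 10 and 11 contacts. Per modelled contact they were 1.18-fold and 1.14-fold, and 1.17-fold and 1.33-fold, above the p42 limits. Scaled by the expected counts, the first was 1.14-fold above the limit in UT and below it in LPS (0.995), and the second 1.16-fold and 1.21-fold above. Jund had 13 and 18 promoter loops in p30 and 14 and 8 in p42. Mafk, a small Maf protein, had 7 promoter loops in each p30 list, 5 in p42 UT and none in p42 LPS. Its 2 p30-only loops, to Psmg3 and its surroundings, had 23 and 16 and 18 and 17 contacts. Both had a p42 LPS loop of 19 contacts within 1 bin at each end, and the first also had a p42 UT one of 31. Fosb was joined to Vasp with 21 and 22 contacts, where the strongest p42 neighbours had 29 and 21. Atf5 shares its start-site bin with Nup62 and Il4i1. That bin was joined to a bin with exons of Il4i1 and Tbc1d17 with 38 and 41 contacts, and the strongest p42 neighbours had 76 and 60. Fos had 9 loops in both p30 lists and Cebpa had 4, none of them p30-only.

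Of 59 inflammatory genes, 10 (16.9%, against 18.6% of all genes) had a p30-only loop. They were Ccl6, Gadd45b, Nfkb2, Nfkbid, Irak4, Irak3, Csf2, Rela, Il6 and Irak2. In 3 of the 10 at least 1 such loop had no near p42 loop. Ccl6, Gadd45b, Nfkb2 and Nfkbid, described next, were not among these 3. The stress gene Gadd45b was joined to Gng7 by a pair of loops, with 30 contacts in p30 UT and 27 in p30 LPS at 15 kb, and with 17 and 23 contacts at 65 kb. The latter was at least 2.28-fold above the p42 LPS limit of 11, and its p42 neighbours had 34 contacts in UT and 37 in LPS. Nfkb2, which codes for an NF-kappaB subunit, was joined to Elovl3 at 170 kb with 10 and 12 contacts and to Sufu at 150 kb with 12 and 15 contacts. The chemokine gene Ccl6 had 29 and 31 contacts with Ccl9 and 22 and 22 with a non-coding region. Per modelled contact, both Ccl6 loops were below the p42 limits of 33 and 29 in UT, and the second also in LPS. Scaled by the expected counts, they were 1.16-fold and 1.27-fold above the limits in UT and 1.37-fold and 1.23-fold in LPS. Nfkbid, a nuclear inhibitor of NF-kappaB, was joined to a bin near Tyrobp with 53 and 46 contacts, also below its p42 UT limit of 61 per modelled contact and 1.24-fold above it when scaled by the expected counts. Cxcl10 had no loop in both p30 lists at its start site. Of interferon-stimulated genes, 3 of 22 (13.6%) had a p30-only loop, namely Irf7, Rnf213 and Ifitm2, with 12 to 15 contacts in each p30 list.

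Genes of the MHC class II pathway, which load and present peptides to helper T cells, had p30-only loops at 4 of 12 (33.3%, against 18.6% of all genes). The members H2-Ob, H2-Oa, H2-DMa and H2-Ab1 are neighbours on chromosome 17 and share loops, so they do not count as independent cases. H2-Oa and H2-Ob, the 2 chains of the peptide-loading regulator H2-O, had their start sites joined over 145 kb with 11 contacts in p30 UT and 10 in p30 LPS. No p42 loop lay within 1 bin at each end, and the counts were at least 1.45-fold and 1.36-fold above limits of 8 and 8. H2-Ob was also joined to the start site of H2-DMa (12 and 12 contacts) and to Btnl2 (11 and 11). H2-Ob had 23 and 19 promoter loops in p30 and 22 and 7 in p42. Coverage of its start-site bin was 6726 and 4675 in p30 and 5207 and 2466 in p42, a ratio of 1.56 in UT and 1.64 in LPS.

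Of 14 erythroid and megakaryocyte genes 1 had a p30-only loop (7.14%, against 18.6% of all genes). It was Itga2b, the CD41 integrin chain of megakaryocytes and early blood progenitors (chr11:102341397-102360955, minus strand). Both of its loops in both p30 lists were p30-only and had no near p42 loop. Its start site was joined to that of Fam171a2 with 18 and 15 contacts and to that of Gpatch8 with 12 and 11, each 1.27-fold above its p42 UT limit per modelled contact, and 1.04-fold and 1.204-fold when scaled by the expected counts. In all, Itga2b had 3 and 2 promoter loops in p30, and 1 and 0 in p42. Of 18 granulocyte genes 2 had a p30-only loop (11.1%). Cyba, a subunit of the phagocyte NADPH oxidase, was joined to an intron of Zfpm1 with 10 and 9 contacts and no near p42 loop, and Prtn3, a neutrophil serine protease, to Tmem259 with 15 and 12. Among adhesion and signalling receptors it was 2 of 23 (8.70%), Itgb7 and Csf2rb2, and none of 9 clustered histone genes had one.

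Cell cycle genes had p30-only loops at 3 of 18 (16.7%, against 18.6% of all genes). The cell cycle inhibitor gene Cdkn1a was joined to Cpne5 with 17 and 16 and with 13 and 14 contacts, out of 24 loops in both p30 lists. Ccnd1, which codes for cyclin D1, was joined to an intron of Tpcn2 over 300 kb and 310 kb with 13 and 8 and with 11 and 9 contacts, where the strongest p42 neighbours had 17 contacts in both treatments. Cdkn2d, another inhibitor, was joined to the start site of Qtrt1 with 12 and 13. Against the same 18.6%, the share was 8 of 52 (15.4%) for cytosolic ribosomal protein genes. It was 12 of 54 (22.2%) for genes of the mitochondrial ribosome and respiratory chain. Rpl15 shares its start-site bin with Nkiras1. This bin had no loop in either p42 list, and its p30-only loop to the start site of the nuclear receptor gene Nr1d2 had 16 and 13 contacts. Mrpl23 had 3 p30-only loops of 19 in both p30 lists. The one with the most contacts, 10 kb long to the non-coding Nctc1, had 91 and 68 against p42 limits of 71 and 52. It was the lowest of the 3 in contacts over expected, at 1.68 and 1.81. Across these 13 lists, no share of genes was read as particular to a list, since no list was tested against all genes.

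**Figure D5:**
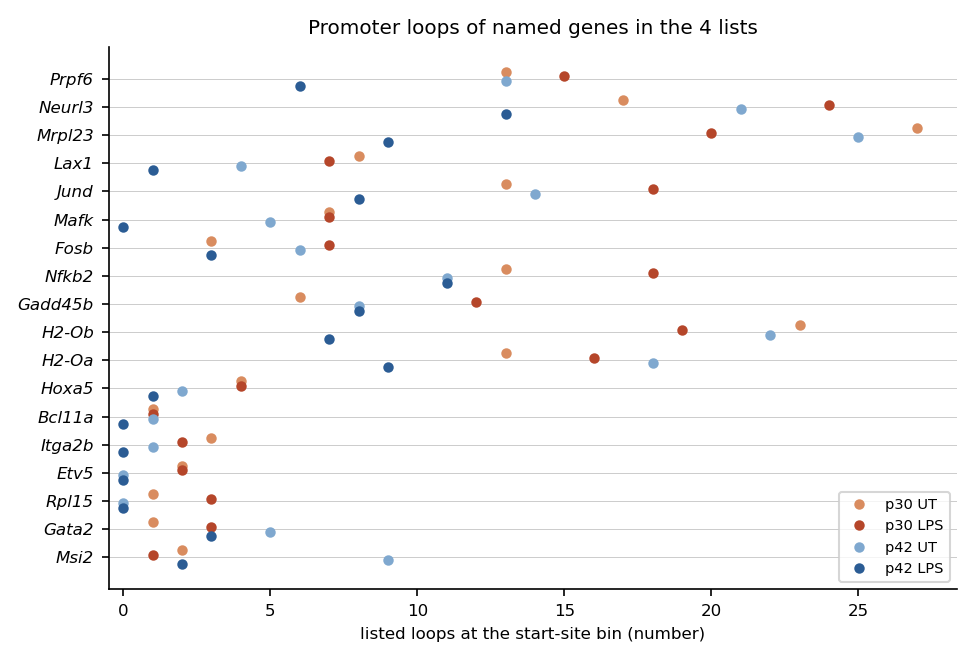
Points are the number of listed loops at the start-site bin (x axis) of 18 named genes (y axis) in each of the 4 lists. Etv5 and Rpl15 have no loop in either p42 list, Lax1 has 8 and 7 in p30 against 4 and 1 in p42, and Prpf6, Neurl3 and H2-Ob have p42 UT counts within 4 of their p30 UT counts.

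The genes with the most p30-only loops were Prpf6, a splicing factor gene, and Samd10, which share a start-site bin with 4 such loops of 8 in both p30 lists. They were joined to the start sites of Lime1, Rgs19 and Gm29797 and to Zbtb46, with 10 to 16 contacts in p30 UT, and each had a p42 loop near. Another 23 genes had 3 such loops, of which Lax1, Mrpl23, Neurl3, Coq8b, Bltp3a, Lgals1, Ccnf and Cd244a had the most summed p30 contacts in them. Lax1 codes for an adaptor of lymphocyte receptor signalling (chr1:133606825-133617885, minus strand), and 3 of its 6 loops in both p30 lists were in this class. A short loop of 10 kb within the gene had 83 contacts in p30 UT and 73 in p30 LPS, above a p42 UT limit of 55. The remaining ones, without a near p42 loop, reached Atp2b4 at 20 kb with 28 and 20 contacts and Optc at 205 kb with 10 and 8. The latter was at least 1.51-fold and 1.25-fold above limits of 7 and 7. A bin beside the Lax1 start site, chr1:133620001-133625000, had 7693 and 5589 reads in p30 and 4286 and 2518 in p42. Neurl3, an E3 ubiquitin ligase gene, had 3 of 17 loops in this class.

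Ranked by p30-only loops without a near p42 loop, Itga2b, Jund and Lax1 stood beside Bcl7b, Ccdc107, Tent4a, Tor1aip1, Tor1aip2 and Gm68747, with 2 each, and Mrpl23 with 1. Tor1aip1, Tor1aip2 and Gm68747 share a start-site bin, which was joined to Cep350 (10 and 10 contacts) and to Abl2 over 530 kb (8 and 9). Both loops of Tent4a, a poly(A) polymerase gene, were p30-only and reached the neighbouring Nsun2 and Srd5a1 with 10 and 9 and with 11 and 10 contacts. Bcl7b was joined to Abhd11 with 10 and 13 contacts at each of 2 adjacent bins.

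The 5 strongest loops without a near p42 loop, ranked by contacts over expected with at least 15 contacts in both p30 lists, had a promoter in 2 cases. The start site of Etv5, an ETS factor gene, was joined over 110 kb to an exon of Dgkg, a diacylglycerol kinase gene, with 16 contacts in p30 UT and 15 in p30 LPS, at 9.97 and 10.5 times the expected count. This was the only loop of Etv5 in both p30 lists, of 2 promoter loops in each p30 list and none in p42, and no p42 limit could be computed. The shared start-site bin of Capza1, which caps actin filaments, and St7l was joined to Tafa3 over 95 kb with 23 and 16 contacts, at 10.6 and 8.19 times the expected count. Its counts were at least 2.70-fold and 1.94-fold above the p42 limits of 9 and 9. Loops at Bace2 (20 and 26 contacts, 6.95 and 10.1 times the expected count), near Lmx1b (16 and 16) and within Ldlrad3 (25 and 16) had no promoter in either bin and no p42 limit.

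Between UT and LPS the p30-only loops changed little in p30. Contacts per modelled contact were higher in LPS by a median of 1.13-fold, compared with 1.16-fold over all loops in both p30 lists. They were at least 1.5-fold higher in LPS for 296 loops (8.75%), where the background was 17.1%, and at least 1.5-fold higher in UT for 33 (0.976%), where it was 2.05%. Presence in both p30 lists is part of the rule, so these shares are a description.

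Motif matches were counted in the 5579 peak bins of p30-only loops and in the 64985 peak bins of all lists, which include them. AP-1 matches were found in 77.0% (75.9 to 78.1) and 77.4% (77.1 to 77.7), and RUNX matches in 32.1% (30.9 to 33.3) and 33.1% (32.8 to 33.5). For GATA the shares were 46.0% (44.7 to 47.3) and 48.3% (48.0 to 48.7), and for the composite of CEBP and ATF 10.2% (9.40 to 10.98) and 11.6% (11.3 to 11.8). ETS matches were found in 32.1% (30.9 to 33.3) and 29.9% (29.6 to 30.3), and in 35.1% (32.1 to 38.2) of the peak bins of loops without a near p42 loop. Against all lists the intervals did not overlap for GATA, the composite and ETS. Against the 30441 peak bins of loops in both p30 lists they overlapped for each of these, at 47.1% (46.6 to 47.7) for GATA, 10.8% (10.4 to 11.1) for the composite and 30.8% (30.3 to 31.4) for ETS. In bins of loops without a near p42 loop, the ETS interval overlapped that of neither background. Their intervals for GATA (42.7 to 49.1) and the composite (9.07 to 13.1) overlapped both. The CEBP palindrome was rare, at 0.448% (0.304 to 0.661) in bins of p30-only loops and 0.611% (0.554 to 0.674) in those of all lists. Median GC content was 47.6% and 45.5%, and GC content changes how often such letters occur. In the 150 bases upstream of start sites, AP-1 letters were found at 2.91% of the 1169 genes with a p30-only loop and 3.61% of all 21738 protein-coding genes, and ETS letters at 1.796% and 1.403%. GATA letters were found there at 0.855% and 1.35%, RUNX letters at 0.342% and 0.814%, the composite at 0.171% and 0.630%, and the CEBP palindrome at 0 of the 1169 genes and 0.120% of all. These are matches of letters and say nothing of occupancy.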

How the data were processed

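H3K27ac HiChIP of HPC-7 cells (Dovetail MNase kit) was deposited as 4 FitHiChIP lists, 1 per group, with 26 columns and no header. Per the study's methods and the submitters' processing notes, reads were mapped to mm39 with BWA 0.7.17, ligation pairs were processed with pairtools, and loops were called in bins of 5 kb at a q-value under 0.01. How the 2 libraries of a group were pooled is not stated, and 0 columns of single samples exist. The authors deposited, per loop, the contact count (raw whole reads), the expected count from the caller's model of distance and coverage, the contact probability (a fraction of modelled contacts), the p-value and q-value, and, per bin, read coverage, a coverage bias as a ratio to the mean, and a peak flag. The caller's correction for coverage can remove part of a difference where H3K27ac itself differs. Only significant pairs were deposited.

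Loops were matched by identical bins, and neighbours by 1 bin of slack at each end. Modelled contacts were taken as the expected count divided by the probability. The caller's expected count was rebuilt from distance and coverage (errors of at most 8.66e-13% on listed pairs), and with it the p42 listing limit, at distances with at least 5 listed pairs; 158102 of 158103 listed p42 UT loops and 78472 of 78473 p42 LPS loops lay above their limit. Genes were 21738 protein-coding genes of GENCODE M39 on GRCm39, the assembly behind mm39, where 21 of 21 chromosome names matched and 0 bins lay past a chromosome end. Named genes were the 10 genes with the most p30-only loops, the 10 with the most that lacked a near p42 loop, up to 4 of each of 13 gene lists, the genes of the 5 strongest loops without a near p42 loop, and Gata2, Msi2, Nt5e, Cebpa, Fos and Cxcl10. One marker of another cell type is not reported here. The members and lists were chosen with earlier results of these data known. Alternatives were lists of equal size, stricter q-values, autosomes, minimum distance and contacts, wider neighbourhoods and promoters, merged loops, other coverage scalings and other limits. The selection of loops and the limits were tested on simulated lists. Python 3.11.15, numpy 2.4.6, pandas 2.3.3, scipy 1.17.1 and pyfaidx 0.9.0.4 were used.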

Additional observations from a re-analysis of the deposited data

How the results depend on the processing

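Each group had 1 pooled list, so leaving out a library could not be run. No paired analysis was possible because the lists are pooled over the replicates of a group. Of 57 values under an alternative, 19 moved by less than their counting interval or, for the number of loops, less than 1.5 times, and 38 moved more; the causes were not tested beyond what each setting does by construction. The 19 include every value on autosomes, the number after merging adjacent pairs, and the number of bins with higher p30 coverage under both treatments (52 per modelled contact and 72 relative to the median of common bins, chosen after seeing the data). In lists of equal size the number of p30-only loops was 5723 (2529 of them shared, 74.8% of the 3381 and 44.2% of the 5723), with 21.2% without a near p42 loop, 32.8% with a promoter, a median distance of 40 kb, 4.04 times the expected contacts in p30 UT and an LPS to UT ratio of 1.16. With q under 0.001 in all lists these were 2103 loops, 18.1% without a near p42 loop, 4.50 and 4.96 times the expected contacts in UT and LPS, and a ratio of 1.14. With q under 0.0001 for presence alone they were 300 loops, 9.0%, 55 kb, 5.59 and 5.94 times, and 1.14. From 20 kb upwards the share without a near p42 loop was 13.4%, promoters were at 34.0%, the median distance at 65 kb, and contacts at 4.83 and 5.11 times the expected. With at least 15 contacts there were 1603 loops, 25.6% with a promoter, 20 kb, and 2.66 and 2.97 times. A slack of 2 bins lowered the share without a near p42 loop to 8.43%, and counting any p42 loop at either bin to 1.66%. Promoters were at 52.7% with adjacent bins and 49.8% with all annotated genes. The p42 to p30 coverage ratio in UT was 1.04 per modelled contact, a scaling that moved the ratio over all peak bins across 1 as well (0.977 to 1.12), and 0.898 relative to the median of common bins; in LPS it was 0.741 per modelled contact. The share of loops 1.5-fold above the p42 limit was 27.6% in UT and 26.4% in LPS with limits from the 5 nearest listed pairs, and 15.2% and 13.2% when scaled by the expected counts. Depth limits all contacts: with medians of 16 and 15 per loop, a p42 count lower by a median of 1.32-fold in UT and 1.31-fold in LPS was enough for absence.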
